A study of Homo sapiens with 12 samples.

Results

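The acute-phase response is a change in secreted and plasma proteins during inflammation, and 10 of its genes, out of 59542 gene rows in the count table, are described here in ovarian carcinoma cells. They fall into an NF-kB-type group of 6 (SAA1, SAA2, LCN2, PTX3, C3 and CFB) and a liver-type group of 4 (FGA, FGB, FGG and SERPINA1). The genes were given by name and are treated as chosen by their levels and fold changes in the same 12 libraries, since earlier results of these data were in view. No threshold on a value was stated, so every contrast below counts as used for the choice, and there are no members just inside or outside a limit. Fold changes and adjusted p-values of these 10 genes therefore describe where each stood in a fit over all genes, and they are no independent evidence for the pattern.

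The cells were SKOV-3, an established human line of ovarian adenocarcinoma, and their poly(A) RNA was sequenced in 4 groups of 3 libraries. The groups were cisplatin-resistant cells with a KDM5A and KDM5B double knockout (resistant knockout), cisplatin-resistant cells of wild-type genotype (resistant), parental cells with the same double knockout (parental knockout) and parental cells of wild-type genotype (parental). KDM5A and KDM5B encode demethylases of histone H3 lysine 4, and the series title asks about their part in cisplatin resistance. All groups were grown in the same serum-supplemented medium, and the labels give no treatment of the cells before RNA extraction. The labels do not say how the knockout was made, whether each knockout line was a single clone, or if replicate libraries stand for independent cultures. A p-value here therefore measures the spread among libraries, and that spread may be technical in origin.

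Total counts ran from 15659352 to 19706754 per library. Levels are given in CPM, counts per 1000000 of the library's scaled total, as libraries 1, 2 and 3 of each group in that order. The transcript of KDM5A measured 17.6, 14.8 and 12.0 CPM in resistant knockout libraries, 39.8, 38.9 and 33.4 CPM in resistant libraries, 22.5, 20.9 and 15.6 CPM in parental knockout libraries and 30.9, 41.5 and 39.35 CPM in parental libraries. It was lower in every knockout library than in every control of its background, with adjusted p-values of 0.0524 in resistant and 1 in parental cells by edgeR. KDM5B averaged 56.6 ± 28.2 CPM in resistant knockout cells against 76.5 ± 36.0 CPM in resistant cells, and 53.7 ± 26.9 CPM in parental knockout cells against 57.8 ± 19.3 CPM in parental cells (SD, n = 3 each), with overlapping libraries. Transcript levels do not measure the proteins.

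The NF-kB-type genes are induced in many epithelial cells through NF-kB together with C/EBP factors, downstream of interleukin-1 and tumour necrosis factor. Fibrinogen and alpha-1-antitrypsin are made mostly by hepatocytes, where C/EBP and FOXA factors help keep their genes active and interleukin-6 acting through STAT3 raises them further. SAA1 and SAA2 encode serum amyloid A proteins that travel with high-density lipoprotein. LCN2 encodes lipocalin-2, which binds iron-loaded siderophores, and PTX3 a long pentraxin that recognises microbes and damaged matrix. C3 is the central complement protein and CFB supplies the protease of the alternative pathway convertase. FGA, FGB and FGG encode the alpha, beta and gamma chains that assemble into fibrinogen, and SERPINA1 encodes alpha-1-antitrypsin, the plasma inhibitor of neutrophil elastase.

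Promoter sequences are shown for 2 genes of each group, for which the table held a stretch free of exons and a match, so these were picked for their matches. The letters searched on both strands were TTNNGNAA for C/EBP and the NF-kB consensus by its name alone. The windows were the 250 bases before each RefSeq start (GRCh38.p14), of which the stretches lying outside GENCODE 29 exons are printed, 5′ to 3′ on the gene's strand. Capitals mark matches.
LCN2: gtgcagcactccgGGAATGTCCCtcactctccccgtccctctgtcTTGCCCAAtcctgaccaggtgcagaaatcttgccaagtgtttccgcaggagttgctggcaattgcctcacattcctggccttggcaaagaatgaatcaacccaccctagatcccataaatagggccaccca
PTX3: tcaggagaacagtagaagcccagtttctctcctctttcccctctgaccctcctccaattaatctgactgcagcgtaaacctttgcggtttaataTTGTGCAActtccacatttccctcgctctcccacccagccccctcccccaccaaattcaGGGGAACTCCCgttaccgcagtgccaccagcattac
FGB: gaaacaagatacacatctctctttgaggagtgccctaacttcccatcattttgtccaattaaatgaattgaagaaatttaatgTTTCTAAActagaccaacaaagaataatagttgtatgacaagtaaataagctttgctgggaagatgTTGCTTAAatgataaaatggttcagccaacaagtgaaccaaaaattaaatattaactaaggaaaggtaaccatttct
FGA: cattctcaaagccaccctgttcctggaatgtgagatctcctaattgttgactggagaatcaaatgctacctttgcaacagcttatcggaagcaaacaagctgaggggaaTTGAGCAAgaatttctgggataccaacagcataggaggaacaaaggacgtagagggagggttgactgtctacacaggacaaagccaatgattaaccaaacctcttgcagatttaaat
The LCN2 stretch (chr9:128149265-128149440, plus strand, 176 bases) held 1 NF-kB and 1 C/EBP match, in that order. It lies outside exons but inside the GENCODE span of LCN2, which starts at 128149071. The PTX3, FGB and FGA stretches lie upstream of the spans of their genes. The PTX3 stretch (chr3:157436600-157436788, plus strand, 189 bases) held 1 C/EBP match and then 2 overlapping NF-kB matches, seen as 1 capital run. In FGB (chr4:154562730-154562955, plus strand, 226 bases) there were 2 C/EBP matches and 0 NF-kB matches. In FGA (chr4:154590767-154590992, minus strand, 226 bases) there were 1 C/EBP match and 0 NF-kB matches. Over 35116 such windows, 5.21% held an NF-kB match and 33.2% a C/EBP match. In the full windows of the other members in the table, CFB held 0 matches of either kind and FGG 1 C/EBP match, while SERPINA1 held 0 matches in 1 window and 1 C/EBP match in the other. The letters are a description of these windows, and no binding was measured.

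**Figure D1:**
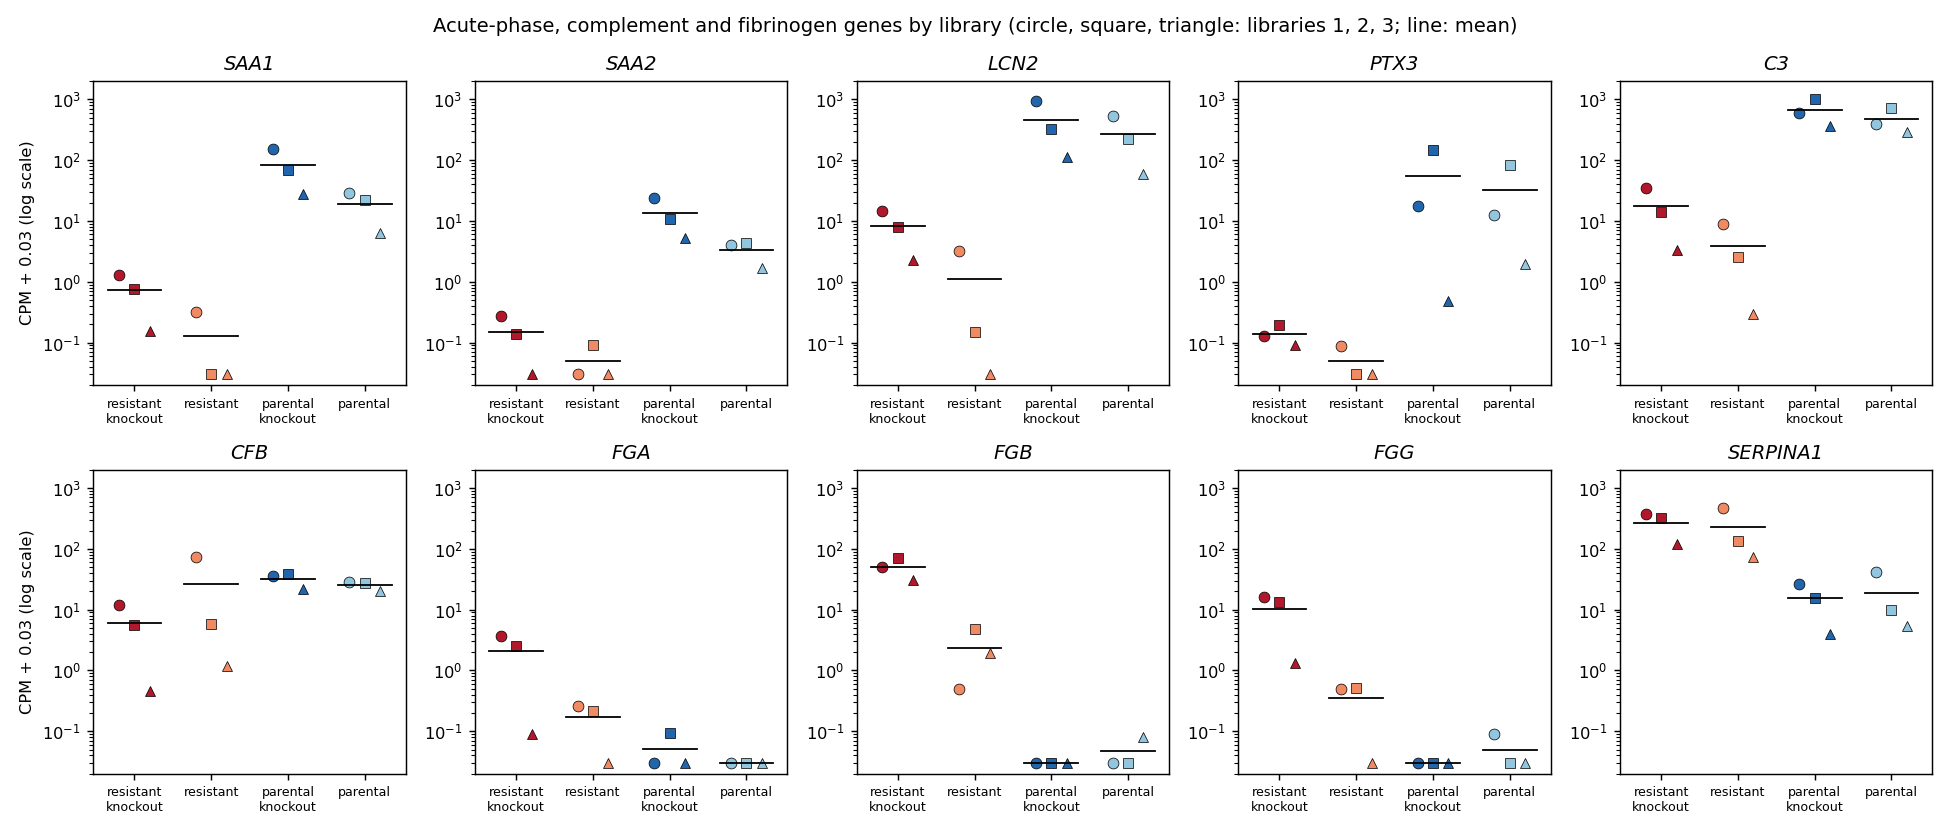
Level of each of the 10 genes in every library, as CPM + 0.03 on a log axis, with the groups in the order resistant knockout, resistant, parental knockout and parental; circles, squares and triangles are libraries 1, 2 and 3, lines are means, and a point at 0.03 is a library with no reads. For SAA1, SAA2, LCN2, PTX3 and C3 all 6 parental-background libraries lie above all 6 resistant-background libraries, and for FGB and SERPINA1 all 6 lie below. The share of all genes separated 6 against 6 was not computed. Between groups of 3 libraries, 16.9% to 23.7% of all genes did not overlap in a given direction in the contrasts of resistant with parental cells.

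Serum amyloid A transcripts were nearly absent from resistant-background cells. SAA1 (ENSG00000173432, GRCh38 chromosome 11, 18266174 to 18269977) measured 1.28, 0.718 and 0.123 CPM in resistant knockout libraries, 0.291, 0 and 0 CPM in resistant libraries, 154, 69.4 and 27.5 CPM in parental knockout libraries and 28.6, 21.8 and 6.36 CPM in parental libraries. SAA2 (ENSG00000134339, chromosome 11, 18239223 to 18248643) measured 0.247, 0.111 and 0 CPM in resistant knockout libraries, 0, 0.0608 and 0 CPM in resistant libraries, 23.8, 10.9 and 5.22 CPM in parental knockout libraries and 3.94, 4.29 and 1.65 CPM in parental libraries. Both genes stood in the order parental knockout, parental, resistant knockout, resistant by group mean. SAA2 did not overlap between the parental knockout and parental groups, while SAA1 overlapped there, since parental knockout library 3 lay just below parental library 1. SAA1 held 79.4% to 87.9% of the summed SAA1 and SAA2 reads in the 6 parental-background libraries. These genes are near copies: 41.3% of the 50-base windows of SAA1 exons also occur in SAA2, and 22.0% of those of SAA2 in SAA1, so the division of reads between them is uncertain. SAA2 also overlaps the SAA2-SAA4 readthrough gene.

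LCN2 (ENSG00000148346, chromosome 9, 128149071 to 128153455) measured 14.3, 7.79 and 2.22 CPM in resistant knockout libraries, 3.15, 0.122 and 0 CPM in resistant libraries, 937, 328 and 113 CPM in parental knockout libraries and 528, 224 and 59.5 CPM in parental libraries. Per kilobase of exon it was the most abundant of the 6 NF-kB-type genes in parental cells, at 169 CPM per kilobase, and in parental knockout cells, at 287 CPM per kilobase. Library 1 was the highest and library 3 the lowest for LCN2 in 4 of 4 groups, and the same held for SERPINA1. PTX3 (ENSG00000163661, chromosome 3, 157436789 to 157443628) measured 0.0988, 0.166 and 0.0617 CPM in resistant knockout libraries, 0.0583, 0 and 0 CPM in resistant libraries, 17.9, 147 and 0.459 CPM in parental knockout libraries and 12.5, 83.5 and 1.91 CPM in parental libraries. Of the 7 genes read in all 6 parental-background libraries PTX3 varied most there: the highest library was 320-fold (parental knockout) and 43.7-fold (parental) above the lowest, and library 2 was the highest in both groups.

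The complement genes differed from each other. C3 (ENSG00000125730, chromosome 19, 6677704 to 6730562) measured 34.7, 13.9 and 3.27 CPM in resistant knockout libraries, 8.92, 2.49 and 0.262 CPM in resistant libraries, 604, 999 and 369 CPM in parental knockout libraries and 394, 722 and 291 CPM in parental libraries. In the parental background it varied less between libraries than SAA1, LCN2 or PTX3 did, with the highest library 2.71-fold above the lowest in parental knockout cells and 2.48-fold in parental cells, whereas its libraries spanned 10.6-fold in resistant knockout and 34.0-fold in resistant cells. CFB (ENSG00000243649, chromosome 6, 31945650 to 31952084) measured 12.1, 5.47 and 0.432 CPM in resistant knockout libraries, 73.0, 5.72 and 1.15 CPM in resistant libraries, 35.8, 38.6 and 22.1 CPM in parental knockout libraries and 28.0, 27.5 and 19.9 CPM in parental libraries. Resistant library 1 was the highest of all 12 for CFB, while the other two resistant libraries lay below every parental-background library. CFB overlaps C2, and C2 averaged 3.22 CPM in resistant knockout cells, 1.62 CPM in resistant cells, 0.734 CPM in parental knockout cells and 0.445 CPM in parental cells, so reads of the shared stretch are uncertain. C3 likewise overlaps GPR108 and AC008760.2 on its own strand, and reads of those shared stretches are uncertain too.

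The fibrinogen genes lie beside each other on chromosome 4 and were read almost only in resistant-background cells. FGB (ENSG00000171564, 154562956 to 154571086) measured 51.0, 70.9 and 30.8 CPM in resistant knockout libraries, 0.466, 4.68 and 1.89 CPM in resistant libraries, 0 CPM in 3 of 3 parental knockout libraries and 0, 0 and 0.0517 CPM in parental libraries. FGG (ENSG00000171557, 154604134 to 154612967) measured 15.9, 13.4 and 1.30 CPM in resistant knockout libraries, 0.466, 0.487 and 0 CPM in resistant libraries, 0 CPM in 3 of 3 parental knockout libraries and 0.0597, 0 and 0 CPM in parental libraries. FGA (ENSG00000171560, 154583126 to 154590766) measured 3.71, 2.49 and 0.0617 CPM in resistant knockout libraries, 0.233, 0.183 and 0 CPM in resistant libraries, 0, 0.0645 and 0 CPM in parental knockout libraries and 0 CPM in 3 of 3 parental libraries. All of these orders put resistant knockout first and resistant second, and for FGB and FGG every resistant knockout library lay above every resistant library. FGA failed the filter on low counts and was left out of the fit, so 9 of the 10 genes were tested. A count of 0 over a group's 3 libraries allows up to 3 counts. This limit and the intervals given below cover counting error alone, since no molecular identifiers were used.

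SERPINA1 (ENSG00000197249, chromosome 14, 94376747 to 94390693) measured 372, 319 and 120 CPM in resistant knockout libraries, 468, 134 and 72.0 CPM in resistant libraries, 26.2, 15.8 and 4.02 CPM in parental knockout libraries and 41.2, 9.98 and 5.33 CPM in parental libraries. Unlike the fibrinogen genes it was clearly read in all 12 libraries. Its order was resistant knockout, resistant, parental, parental knockout by mean, and libraries overlapped between knockout and control in both backgrounds. Per kilobase of exon SERPINA1 was the most abundant of the 10 genes in resistant knockout cells, at 55.1 CPM per kilobase, followed by FGB at 18.8, and in resistant cells, at 45.8 CPM per kilobase.

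The 3 fibrinogen chain transcripts were not level with each other. FGB made up 72.2%, 81.7% and 95.8% of the summed fibrinogen reads in resistant knockout libraries, against 40.0%, 87.5% and 100% in resistant libraries, where the sums were 20, 88 and 36 reads. Exact 95% counting intervals were 69.8% to 74.5%, 79.7% to 83.6% and 93.7% to 97.3% in resistant knockout libraries, against 19.1% to 63.9%, 78.7% to 93.6% and 90.3% to 100% in resistant libraries. Per kilobase, FGB exceeded FGG by 4.26, 7.02 and 31.6 times in resistant knockout libraries. Resistant knockout library 3 held 499 FGB reads with 21 of FGG and 1 of FGA, so FGB was lower there by less than FGG and FGA were. Intact fibrinogen holds each chain in equal number.

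**Figure D2:**
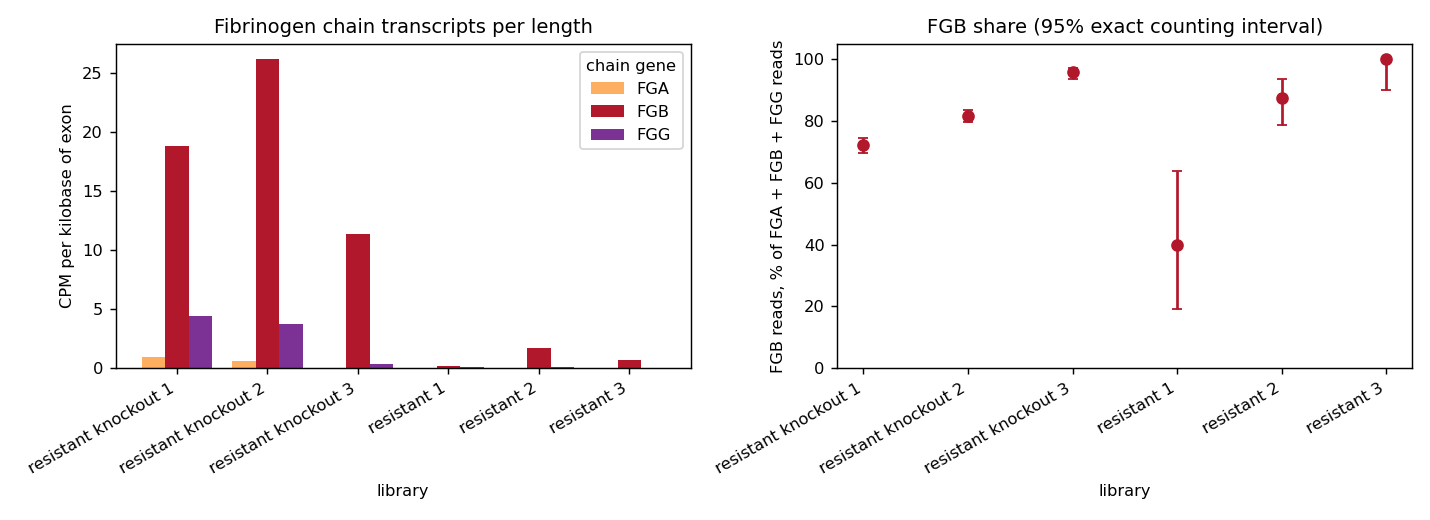
Left, bars give FGA, FGB and FGG levels in CPM per kilobase of exon in each resistant knockout and resistant library; right, points give the share of fibrinogen reads that were FGB, with exact 95% counting intervals. FGB was the tallest bar in each resistant knockout library, and its share ran from 72.2% to 95.8% there.

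Resistant cells, compared with parental cells without the knockout, had lower NF-kB-type and higher liver-type transcripts. SAA1 fell by 7.53 ± 1.14 on the log2 scale (SE, adjusted p = 0.000501 by edgeR), with pooled reads 192-fold lower and a 95% exact counting interval of 81.9 to 592. LCN2 fell by 7.96 ± 1.49 (adjusted p = 0.00209) and C3 fell by 6.91 ± 1.14 (adjusted p = 0.000955), with pooled levels 245-fold and 120-fold lower. SAA2 and PTX3 had 1 read each over the resistant libraries, so their folds rest on the counting interval: SAA2 was 168-fold lower (29.7 to 6673), and PTX3 1579-fold lower (283 to 62394). In the other direction SERPINA1 rose by 3.58 ± 0.93 (adjusted p = 0.0125), with pooled levels 12.0-fold higher. FGB had 121 reads in resistant and 1 in parental libraries, a ratio of 119 (20.9 to 4734, adjusted p = 0.00202). CFB, at 0.08 ± 1.09 (adjusted p = 0.963), and FGG, with 16 reads against 1 and a ratio of 15.7 (2.44 to 659, adjusted p = 0.131), did not pass. FGG did pass with no filter beyond 1 count (adjusted p = 0.0048, beside 13.9% of all genes). It also passed with a replicate block over all 12 libraries (0.022, beside 30.9%) or within each background (0.014, beside 52.3%). CFB passed as lower with the block within each background (-1.55, adjusted p = 0.00167), where the same 52.3% of all genes passed.

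Of 6 NF-kB-type genes 5 fell, and of 3 liver-type genes tested 2 rose. Over all 17947 genes tested, 28% passed, 15.2% higher and 12.8% lower. Libraries did not overlap for 5 NF-kB-type genes, all lower, and 2 liver-type genes, both higher, beside 21.8% of all genes that were lower and 23.7% that were higher without overlap. The median log2 fold change was -7.25 for the NF-kB-type group and 3.59 for the liver-type genes tested, against 0.02 for all genes. From pooled levels, which need no fitted value, the medians were -7.49 over 6 genes and 3.78 over 4 genes. Resistant library 1 held 5 of the 5 SAA1 reads and 54 of the 56 LCN2 reads of its group, and without it both stayed past the threshold, at a fitted -12.05 for LCN2 and at 0 reads in the remaining resistant libraries for SAA1 (fitted -11.39, which is no bound). PTX3 lost its call with limma-voom in place of edgeR (adjusted p = 0.0791), and SERPINA1 lost its call without resistant library 1 (adjusted p = 0.0558) or parental library 2 (adjusted p = 0.0557). In RNA of whole cultures, fewer cells that express a gene and less RNA per cell cannot be told apart.

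Among knockout cells, the resistant and parental backgrounds differed in the same way. The libraries were different on both sides, but the fit shares its spread over all 12 libraries. This contrast also counts as used for the choice of the genes, so it is no independent evidence. SAA1 fell by 6.83 ± 0.97 on the log2 scale (adjusted p = 0.000441), SAA2 by 6.65 ± 0.89 (adjusted p = 0.000286) and PTX3 by 8.88 ± 2.01 (adjusted p = 0.00743). LCN2 fell by 5.82 ± 1.33 (adjusted p = 0.00765) and C3 fell by 5.24 ± 1.05 (adjusted p = 0.00373). As shares of the parental knockout level, pooled levels in resistant knockout cells were 0.859% for SAA1, 0.924% for SAA2, 0.220% for PTX3, 1.76% for LCN2 and 2.87% for C3. CFB was 4.99-fold lower in pooled levels (4.44 to 5.61), and at -2.41 ± 1.15 (adjusted p = 0.147) it did not pass, though its libraries did not overlap. FGB had 2815 reads in resistant knockout and 0 in parental knockout libraries, at least 910-fold higher, and FGG 586 against 0, at least 190-fold higher. SERPINA1 rose by 4.14 ± 0.95 (adjusted p = 0.0078), with pooled levels 17.7-fold higher, and FGA had 121 reads against 1, a ratio of 117 (20.7 to 4675).

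In this contrast 5 of 6 NF-kB-type genes fell and 3 of 3 liver-type genes tested rose, beside 23.9% of all genes tested (13.6% higher, 10.2% lower). Libraries did not overlap for 6 NF-kB-type genes, all lower, and for 3 liver-type genes, all higher, beside 16.9% and 20.3% of all genes. Fitted medians were -6.23 and 10.50, and those from pooled levels, with FGB and FGG at their bounds, were -6.29 over 6 genes and 7.22 over 4 genes. PTX3 lost its call with limma-voom (adjusted p = 0.148). CFB gained one with no filter beyond 1 count (1.74e-08, beside 12.6% of all genes) and without resistant library 1 (0.0447, beside 25.2%). That library is of neither group but enters the shared spread. CFB also passed with a replicate block over all 12 libraries (0.0316, beside 26.7%) or within each background (6.74e-06, beside 49%).

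**Figure D3:**
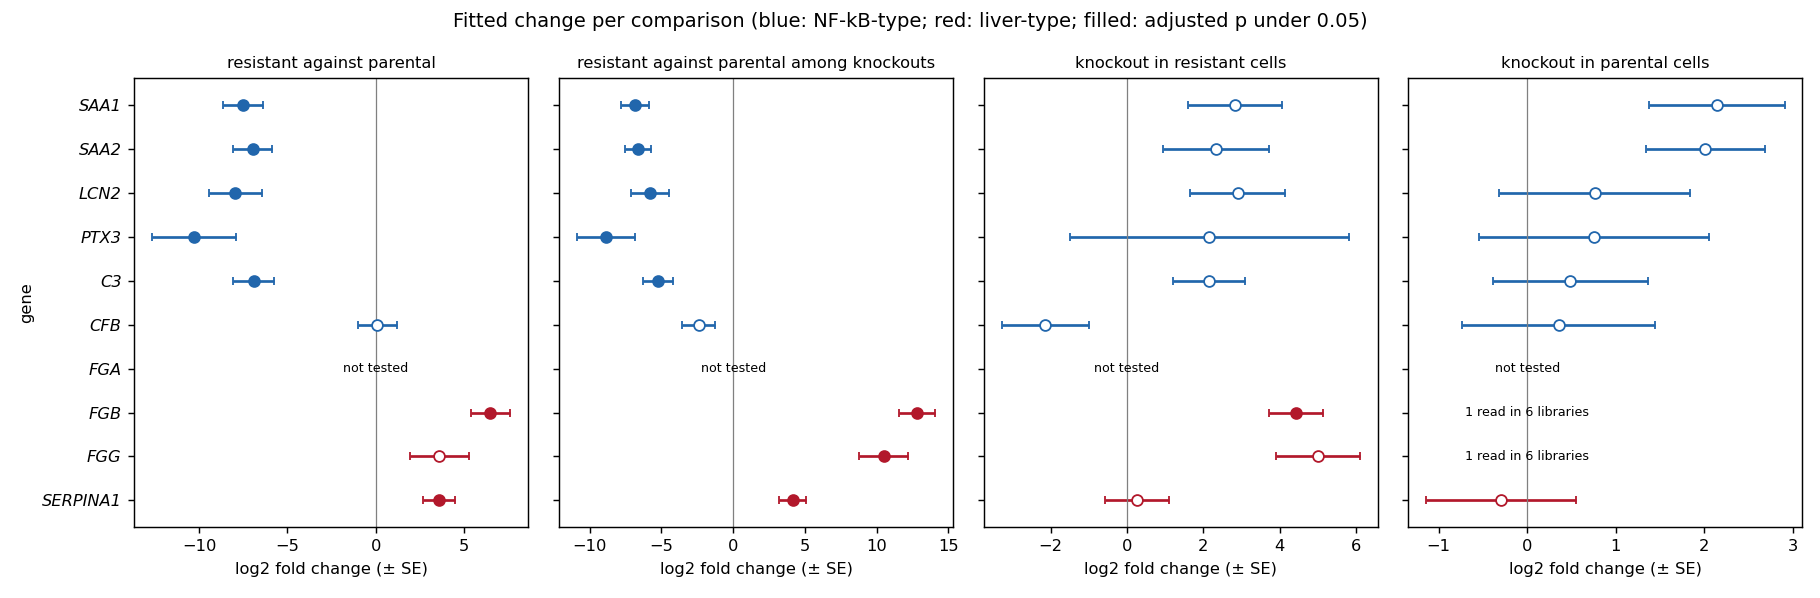
Log2 fold change with its SE from the fit over all genes, by contrast, for NF-kB-type genes (blue) and liver-type genes (red); filled points passed an adjusted p of 0.05, and FGA was not tested. In both contrasts of resistant with parental cells the blue points, CFB excepted in the first, lie left of 0 and the red points right of it; points of genes with 0 or 1 read in a group depend on the fit's prior count and are no bounds.

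Of the 9 genes tested, FGB alone passed the threshold with the double knockout in resistant cells. It rose by 4.44 ± 0.71 on the log2 scale (adjusted p = 0.0362), with pooled levels 22.5-fold higher (18.7 to 27.2), and it was 1 of 38 genes that passed, 0.212% of those tested. FGG was 35.3-fold higher in pooled reads (21.6 to 62.2), at 5.00 ± 1.10 with an adjusted p of 0.141, and FGA was 16.7-fold higher (7.85 to 42.4) and not tested. For FGB and FGG the libraries did not overlap between groups, while for FGA resistant knockout library 3 lay below resistant libraries 1 and 2. PTX3 also did not overlap, at 6 reads against 1, and 8.01% of all genes were higher and 7.19% lower without overlap. SERPINA1, at 0.27 ± 0.83 (adjusted p = 0.975), overlapped, so the 4 liver-type genes did not move alike. The FGB call was lost without any 1 of the 6 resistant-background libraries (adjusted p = 0.0518 to 0.203) and without parental library 1 (0.0545) or 3 (0.0574). FGG did pass with no filter beyond 1 count (adjusted p = 2.01e-10 by edgeR, beside 1.09% of all genes). It also passed with a replicate block over all 12 libraries (0.0104, beside 0.306%) or within each background (5.27e-05, beside 5.23%).

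The NF-kB-type genes other than CFB were nominally higher in resistant knockout cells, and 0 of 6 passed. SAA1 was at 2.84 ± 1.24 (adjusted p = 0.590), LCN2 at 2.90 ± 1.25 (0.581) and C3 at 2.16 ± 0.94 (0.590). In pooled reads SAA1 was 7.91-fold higher (3.13 to 25.7), LCN2 8.05-fold (6.09 to 10.8) and C3 4.88-fold (4.19 to 5.71), and libraries overlapped for each of the 3. Leaving out each library gave 2.07 to 6.70 for SAA1, 2.19 to 6.99 for LCN2 and 1.13 to 3.66 for C3, each highest without resistant library 1, and none passed. SAA2 had 7 reads against 1 and PTX3 6 against 1, at ratios of 6.76 (0.868 to 304) and 5.79 (0.702 to 266), which include no change. CFB was at -2.14 ± 1.14 (adjusted p = 0.696), a value that was 0.81 without resistant library 1. With no filter beyond 1 count, SAA1, LCN2 and C3 passed as higher (adjusted p = 0.000799, 8.39e-10 and 7.48e-06 by edgeR). CFB passed as lower there (6.77e-06), beside 1.09% of all genes that passed. With the block within each background these genes also passed (0.0144, 0.000986, 0.000211 and 0.0485), beside 5.23% of all genes. The numbers did not pair the resistant libraries. At an unadjusted p under 0.05, edgeR counted 5 of the 9 genes tested, all higher, beside 7.95% of all genes. The resistant libraries are the controls here and also the upper term of the contrast with parental cells, so these contrasts share libraries.

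In parental cells the double knockout moved none of the 10 genes past the threshold, and 0 of 17947 genes passed, with 539 (3%) at an unadjusted p under 0.05 by edgeR, while DESeq2 called 11 genes (0.0614%) at an adjusted p under 0.05, none of the 10 among them. SAA1 was at 2.15 ± 0.76 and SAA2 at 2.02 ± 0.67, both with an adjusted p of 1 by edgeR. SAA2 was the 1 member whose libraries did not overlap, higher in parental knockout cells, beside 3.2% of all genes higher and 3.38% lower without overlap. Parental libraries with the same number deviated together from their group means, so a block on the number was also used. As the ratio of the parental knockout to the parental library of the same number, SAA1 was 5.38, 3.19 and 4.33 and SAA2 was 6.03, 2.54 and 3.16. LCN2 gave 1.77, 1.47 and 1.89, C3 gave 1.53, 1.39 and 1.27 and CFB gave 1.28, 1.40 and 1.11, so these 5 genes were higher in 3 of 3 pairs, as were 21.8% of all genes tested, while 23.3% were lower in 3 of 3. SERPINA1 gave 0.635, 1.58 and 0.754, and PTX3 1.43, 1.76 and 0.240. FGB and FGG had 0 reads in parental knockout and 1 each in parental libraries, and FGA 1 and 0, so no fold is given.

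With the block within each background, SAA1 rose by 2.07 ± 0.24 (adjusted p = 0.00154) and SAA2 by 1.88 ± 0.34 (adjusted p = 0.0202), beside 0.858% of all genes. With the block on the parental numbers and all 12 libraries in the fit, 0 genes passed, and adjusted p-values were 0.402 for SAA1 and 0.467 for SAA2. With the 6 parental-background libraries fitted alone, SAA1 (2.09 ± 0.15), SAA2 (1.91 ± 0.26), LCN2 (0.78 ± 0.11) and C3 (0.49 ± 0.11) passed of 7 tested, beside 7.58% of all genes. The last 2 forms of the block were chosen after the data were seen. The mitochondrial share of counts was 10.7%, 6.54% and 16.3% in parental knockout libraries and 7.75%, 5.34% and 7.55% in parental libraries, and its part in these ratios was not tested.

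**Figure D4:**
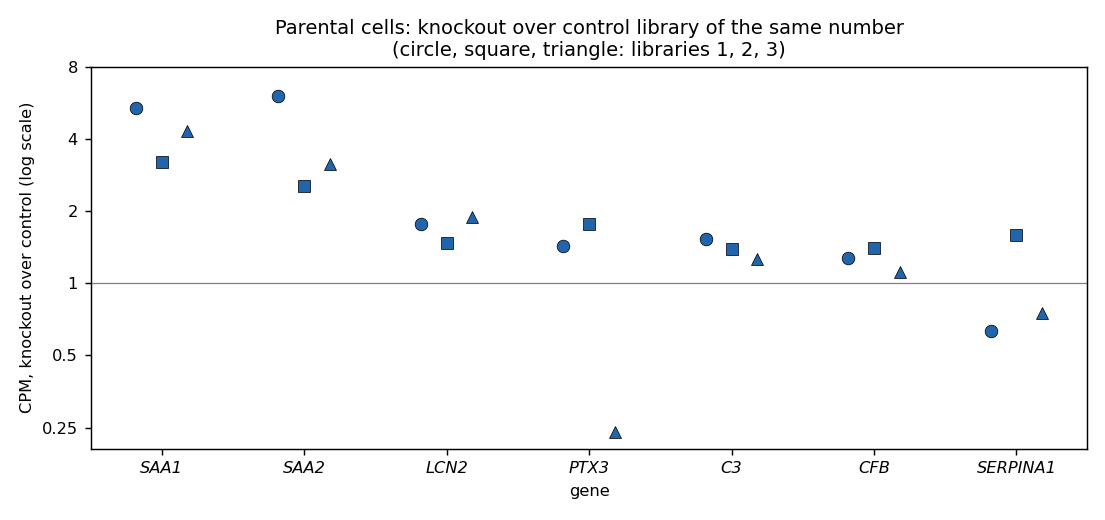
Level in each parental knockout library divided by that in the parental library of the same number, on a log axis, for the 7 genes read in every parental-background library; circles, squares and triangles are pairs 1, 2 and 3. SAA1 and SAA2 lie at 2.54 or higher in 3 of 3 pairs, while SERPINA1 and PTX3 lie on both sides of 1.

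Without a block, the knockout effect was not shown to differ between backgrounds for any of the genes tested: 0 of 9 passed edgeR's test of the difference, and 0 did at an unadjusted p under 0.05, beside 0.0279% and 3.78% of all genes, while DESeq2 called 0.374% of all genes. For SAA1 the difference, resistant minus parental, was 0.69 ± 1.39, for C3 1.67 ± 1.27, for LCN2 2.14 ± 1.62 and for CFB -2.49 ± 1.57. FGB (6.33 ± 3.41) and FGG (6.91 ± 3.99) had the largest fitted differences, which depend on the prior count since parental-background cells had 1 read of each. With the replicate block within each background LCN2 (2.64 ± 0.61, adjusted p = 0.046) and C3 (1.94 ± 0.37, adjusted p = 0.0149) passed, beside 1.53% of all genes, although the numbers did not pair the resistant libraries.

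Among 24 other acute-phase genes, 7 were expressed enough to be tested, and 3 rose and 3 fell in resistant against parental cells (median log2 fold change 1.43). For this and the lists below, the shares of all genes that passed were 28% in that contrast and 23.9% among knockout cells. SERPINA3, alpha-1-antichymotrypsin, averaged 36.3 ± 29.1 CPM in resistant knockout cells against 0.478 ± 0.334 CPM in parental knockout cells, and 5.12 ± 3.86 CPM in resistant cells against 0.549 ± 0.421 CPM in parental cells (SD, n = 3 each), passing in both contrasts. SLPI, an inhibitor of leukocyte proteases, fell to 1.85 CPM in resistant cells, against 229 ± 141 CPM in parental cells, with resistant libraries between 0.157 and 4.95 CPM. ITIH3, a heavy chain of the inter-alpha-trypsin inhibitors, rose by 3.95 ± 0.89 on the log2 scale, and CP, the copper protein ceruloplasmin, fell by 4.79 ± 1.28. Among knockout cells 1 rose and 3 fell, including SAA4, a serum amyloid A gene beside SAA2, which fell by 5.71 ± 1.00.

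The other complement genes mostly did not pass. Of 28, 18 were tested, and 1 rose and 1 fell in resistant cells, with a median of 0.25. CLU, which encodes clusterin, an inhibitor of the terminal complement complex, averaged 588 ± 34.6 CPM in resistant cells against 11.4 ± 11.1 CPM in parental cells (adjusted p = 0.000489), and C5 fell by 1.56 ± 0.46. Among knockout cells CLU averaged 586 ± 135 CPM in resistant knockout cells against 6.04 ± 5.10 CPM in parental knockout cells. SERPING1, the C1 inhibitor, rose there by 3.04 ± 0.91, making 2 higher and 0 lower.

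Of 22 coagulation genes 11 were tested, and 5 rose and 2 fell in resistant against parental cells (median 1.33), while 3 rose and 2 fell among knockout cells (median 0.59). THBD, thrombomodulin, averaged 0.448 ± 0.157 CPM in resistant cells against 51.4 ± 36.9 CPM in parental cells. PROCR, the protein C receptor, averaged 68.2 ± 12.8 CPM against 9.19 ± 3.73 CPM, and PROS1, protein S, 242 ± 213 CPM against 31.7 ± 21.9 CPM. SERPINF2, which inhibits plasmin, averaged 1.57 CPM against 0.239 CPM. Among knockout cells PROC, protein C, averaged 25.7 ± 9.3 CPM in resistant knockout and 3.11 ± 3.32 CPM in parental knockout cells.

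The receptors and partners of these proteins were also divided. Of 19 genes 11 were tested, and 3 rose and 2 fell in resistant cells (median 0.88), while 2 rose and 3 fell among knockout cells (median 0.34). SLC22A17, a receptor for lipocalin-2, averaged 112 ± 81.9 CPM in resistant cells against 3.00 ± 1.84 CPM in parental cells, opposite in direction to LCN2 itself. ITGAX, the alpha chain of an integrin that binds cleaved C3 and fibrinogen, averaged 20.8 ± 13.9 CPM in resistant knockout cells against 0.382 ± 0.170 CPM in parental knockout cells, and 5.41 ± 1.25 CPM in resistant cells against 0.532 ± 0.475 CPM in parental cells. ITGB2, the beta chain gene, had the opposite direction, at 3.87 ± 0.92 CPM in resistant against 24.6 ± 16.1 CPM in parental cells. That difference did not pass (adjusted p = 0.0517 by edgeR). Among knockout cells ITGB2 averaged 5.53 ± 3.38 CPM in resistant knockout against 39.7 ± 40.5 CPM in parental knockout cells. It was added after its values were seen. TLR2, a receptor upstream of NF-kB, had no reads in 3 of 3 resistant libraries, against 2.63 ± 0.34 CPM in parental cells. ICAM1, an NF-kB target that binds fibrinogen, fell by 4.28 ± 0.70 in resistant cells. In these 4 lists and in that of the regulators, 0 genes passed in either knockout contrast or in the test of the difference.

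Regulators of both groups were read from a list of 28, of which 24 were tested: 4 rose and 6 fell in resistant against parental cells (median -0.29), and 2 rose and 7 fell among knockout cells (median -0.20). The inducing cytokine transcripts differed. LIF, of the interleukin-6 family, averaged 103 ± 31 CPM in resistant knockout cells, 104 ± 33 CPM in resistant cells, 118 ± 53 CPM in parental knockout cells and 80.0 ± 30.2 CPM in parental cells, and passed in no contrast; it was added after its values were seen. IL6 measured 0.445, 0.884 and 1.11 CPM in resistant knockout libraries, 0, 0 and 0.105 CPM in resistant libraries, 184, 559 and 15.9 CPM in parental knockout libraries and 171, 201 and 18.1 CPM in parental libraries. It fell in both contrasts of resistant with parental cells (adjusted p = 0.000878 among knockout cells and 0.000384 without the knockout). IL1A averaged 2.81 ± 0.24 CPM in resistant knockout cells, 0.118 ± 0.109 CPM in resistant cells, 125 ± 107 CPM in parental knockout cells and 132 ± 100 CPM in parental cells. IL1B was near 0 in every group, with 0.444 ± 0.312 CPM in parental cells as the highest mean, and was not tested.

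Of the factors that act on the NF-kB-type genes, CEBPB averaged 30.8 ± 1.8 CPM in resistant knockout cells, 23.2 ± 4.8 CPM in resistant cells, 146 ± 106 CPM in parental knockout cells and 162 ± 96 CPM in parental cells, and it fell by 2.80 ± 0.62 in resistant cells. The NF-kB subunit gene RELB fell by 2.92 ± 0.74 there, NFKB1 fell by 1.64 ± 0.47 and NFKB2 fell by 1.34 ± 0.41, the last 2 being added after their values were seen. RELA, another NF-kB subunit gene, was at -0.61 ± 0.27 in that contrast and did not pass (adjusted p = 0.103 by edgeR). RELA was also added after its values were seen. CEBPD, the cofactor gene NFKBIZ, the signalling inhibitor gene SOCS3 and STAT3 did not pass in resistant against parental cells (adjusted p = 0.223, 0.690, 0.308 and 0.775). NFKBIZ, a nuclear cofactor needed for LCN2 induction in mouse cells, fell among knockout cells, at 14.4 ± 8.3 CPM in resistant knockout and 45.8 ± 9.5 CPM in parental knockout cells (adjusted p = 0.0424).

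The liver factors followed no common course. HNF4A averaged at most 0.203 CPM in a group and was not tested. FOXA3 measured 2.62, 1.77 and 1.97 CPM in resistant knockout libraries, 0.525, 0.487 and 0.420 CPM in resistant libraries, 0.25, 0 and 0 CPM in parental knockout libraries and 0.0597, 0 and 0 CPM in parental libraries. It shared with FGB the order of resistant knockout first and resistant second, with no overlap between them, and its knockout contrast in resistant cells, at 2.14 ± 0.73, did not pass (adjusted p = 0.437). FOXA2 averaged 10.6 ± 6.9 CPM in resistant knockout cells, 12.1 ± 6.3 CPM in resistant cells, 2.56 ± 2.95 CPM in parental knockout cells and 1.91 ± 1.81 CPM in parental cells, and rose in resistant cells (adjusted p = 0.042). FOXA1 was at 1.35 ± 0.29, 2.03 ± 0.72, 1.57 ± 0.70 and 2.44 ± 1.26 CPM in resistant knockout, resistant, parental knockout and parental cells. ONECUT1, also called HNF6, averaged 1.13 ± 0.66 CPM in resistant and 0.0544 ± 0.0519 CPM in parental cells and rose.

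**Figure D5:**
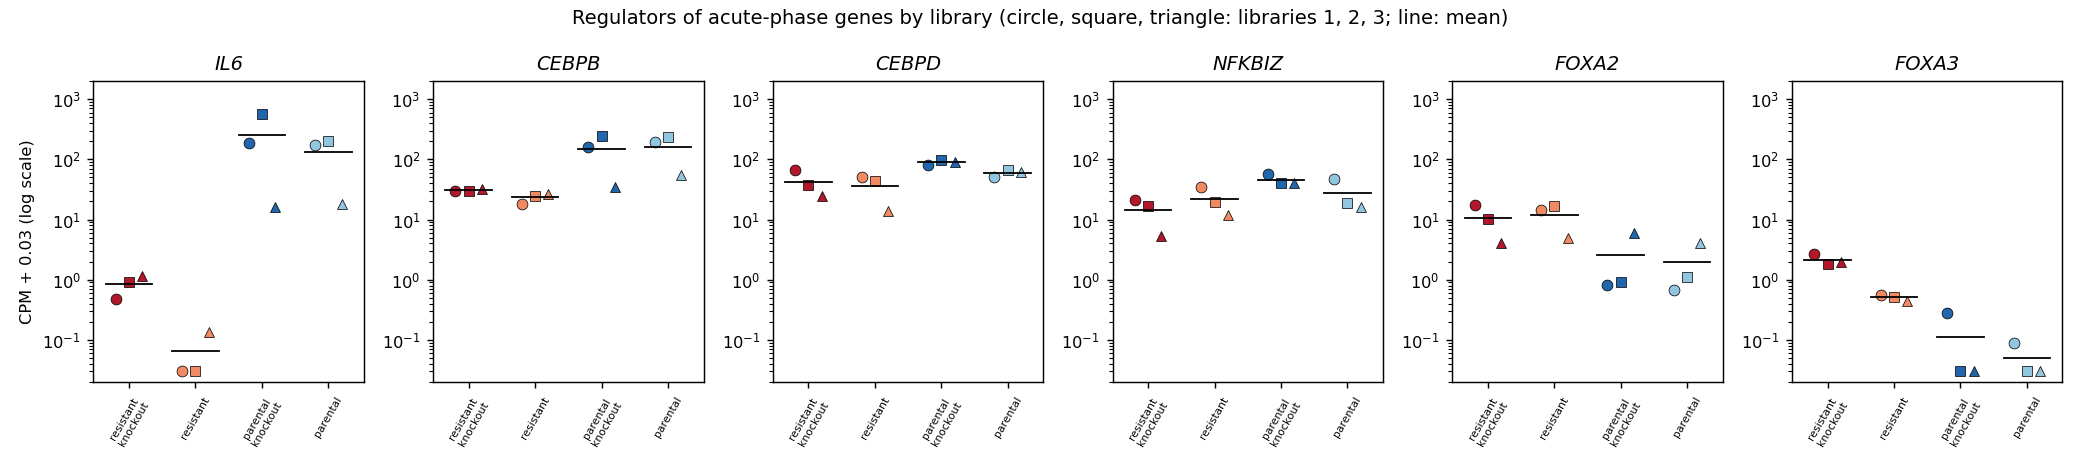
Levels of 6 regulators in every library, as CPM + 0.03 on a log axis, with groups and symbols as in the plot of the 10 genes. IL6 and FOXA3 separate the 6 resistant-background from the 6 parental-background libraries in opposite directions, and CEBPB is also higher in all 6 parental-background libraries. The share of all genes separated in this way was not computed.

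To see which other cells might be present, marker levels were summed. None of 10 hepatocyte markers averaged 1 CPM in any group, and their summed level was 1.68 to 1.82 CPM in resistant knockout libraries, 0.791 to 1.42 CPM in resistant libraries, 1.29 to 2.80 CPM in parental knockout libraries and 0.776 to 1.37 CPM in parental libraries. CYP3A4 and SERPINC1 had no reads in resistant knockout cells, and APOA1, APOB and TTR none in resistant cells, so the defining hepatocyte transcripts were at or near 0 where fibrinogen transcripts were read. The 9 macrophage and neutrophil markers summed to at most 1.04 CPM in a library, with 0 of 9 at 1 CPM in every group, and 0 of 5 endothelial markers averaged 1 CPM. Of 7 markers of the ovarian carcinoma line 7, 6, 6 and 6 averaged at least 1 CPM in resistant knockout, resistant, parental knockout and parental cells. Their levels were not stable: KRT8, KRT18 and WT1 rose and EPCAM, KRT7 and ERBB2 fell in resistant against parental cells. Among knockout cells 3 of these markers rose and 1 fell. Most fibroblast markers went in the direction of the liver-type genes: 7, 6, 3 and 1 of 9 averaged at least 1 CPM in resistant knockout, resistant, parental knockout and parental cells, none was at 0, and in both contrasts of resistant with parental cells 6 rose and 1 fell of 8 tested. DCN fell, at 0.0747 CPM in resistant against 2.46 CPM in parental cells, and THY1 was too low to test. Their summed level was 2552 to 4484 CPM in resistant knockout libraries, 360 to 965 CPM in resistant libraries, 2.30 to 27.9 CPM in parental knockout libraries and 1.61 to 8.58 CPM in parental libraries, and its part in the fibrinogen result was not tested. COL1A1 made up most of that sum in the resistant background, averaging 3644 CPM in resistant knockout cells and 669.9 CPM in resistant cells.

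Genes most like SAA1, C3 and FGB were sought among 13913 protein-coding genes, by the smallest root mean square difference of centred log2 (CPM + 2) over the 12 libraries. The nearest to SAA1 were ARL14EPL (0.778), TNFAIP3 (0.798), SCAMP5 (0.826) and DMBT1 (0.851). TNFAIP3, an inhibitor of NF-kB signalling that is itself an NF-kB target, averaged 3.66 CPM in resistant knockout, 1.28 in resistant, 44.8 in parental knockout and 30.7 in parental cells. The nearest to C3 were the chemokine gene CXCL1 (0.888), MAL2 (0.906), NEURL1 (0.977) and CTH (1.02). The nearest to FGB were HAPLN1 (0.443), POSTN (0.588), KRT81 (0.588) and COL3A1 (0.752), of which COL3A1 is also on the fibroblast marker list. COL3A1 averaged 42.4 CPM in resistant knockout, 2.27 in resistant, 0.0191 in parental knockout and 0.0199 in parental cells.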

How the data were processed

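Raw counts per gene were deposited by the authors for 12 libraries. Per the labels' protocols, libraries were poly(A)-selected and made with a directional kit. The submitters' processing notes name featureCounts 2.0.1, STAR 2.7.10a, Trim Galore 0.6.10 and build GRCh38. Annotation, strand setting and treatment of multi-mapping reads: not given in the sources used here. A second deposited copy of the counts was equal in 714504 of 714504 cells. Total counts were 15659352 to 19706754, and every pair of libraries within a group differed by more than sampling noise (chi-square divided by its degrees of freedom, 27.1 or more). The names of a pair of resistant columns differ from the labels in 1 letter and were assigned on their other characters.

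Groups came from the sample titles. From the counts, edgeR 4.0.16 (R 4.3.3) kept 17947 genes with filterByExpr, scaled with TMM factors and fitted 1 mean per group over 12 libraries. A total of 5 contrasts were tested with the robust quasi-likelihood test and Benjamini-Hochberg adjustment over all genes, at 0.05. SEs are the log2 fold change over the root of F. CPM uses TMM-scaled totals, and CPM per kilobase uses GENCODE 29 exon lengths. Ratios of pooled counts have exact 95% counting intervals. The procedure was tested on simulated data.

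Alternatives were other scaling factors, filters, DESeq2 1.42.0, limma-voom (limma 3.58.1), the compared libraries alone, a replicate block and leaving out libraries. Same-numbered libraries were checked by correlating deviations from group means: parental pairs gave 0.73, 0.87 and 0.85 and were taken as paired, resistant pairs gave 0.60, -0.27 and 0.71 and were not. The labels do not say what a number marks. The members and gene lists were chosen with earlier results of these data known. Named genes were the members, a fixed set of regulators as levels (a few are not reported here), up to 4 genes per list and contrast with the largest change among those that passed at 1 CPM or more, the 4 genes most like SAA1, C3 and FGB, and KDM5A and KDM5B.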

Additional observations from a re-analysis of the deposited data

How the results depend on the processing

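The counts of genes called among the 10 were 7 for resistant against parental cells and 8 among knockout cells. They stayed within 1.5 times of these under every alternative run, at 6 to 7 and 8 to 10 when each library was left out. The share of all genes that passed moved more. It ran from 13.9% to 52.3% in the first contrast and from 12.6% to 49% among knockout cells. It was lowest with no filter beyond 1 count and highest with the block within each background. With each library left out it ran from 16.3% to 29.1% and from 14.6% to 25.3%. The knockout in resistant cells, with 1 call, was the least settled. It gave 7 calls with no filter beyond 1 count (beside 1.09% of all genes), 0 with the libraries compared alone (0.155%), 2 with a replicate block over all 12 libraries (0.306%) and 6 with a replicate block within each background (5.23%), and 0 to 1 when each library was left out. The knockout in parental cells, with 0 calls, gave 1 with no filter beyond 1 count (0.201%), 2 with the replicate block within each background (0.858%) and 4 with the replicate block on the 6 parental-background libraries alone (7.58%). The difference of knockout effects, with 0 calls, gave 2 with no filter beyond 1 count (0.39%) and 2 with the replicate block within each background (1.53%). The cause of these shifts was not tested. The numbers do not pair libraries between backgrounds or within the resistant background, so block values there are no main result.

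Of 986 single-gene values, 920 kept direction and side of the threshold, 13 lost a call, 29 gained one and 24 changed sign. PTX3 lost its calls with limma-voom (adjusted p = 0.148 among knockout cells, 0.0791 without the knockout). CFB in resistant against parental cells was -1.69 with limma-voom, -1.28 with the replicate block over all 12 libraries, -1.55 with the block within each background and -0.10 without both parental-background libraries numbered 3. When each library was left out, signs turned within these ranges. CFB in resistant against parental cells ran from -2.88 (without resistant library 1) to 0.69. In resistant knockout cells CFB ran from -3.17 to 0.81 (without resistant library 1) and SERPINA1 from -0.18 to 1.39. In parental knockout cells LCN2 ran from -0.33 to 1.74, PTX3 from -1.84 to 2.95 and SERPINA1 from -0.96 to 1.04, and PTX3 was -0.19 with limma-voom. The difference of knockout effects ran from -0.087 to 4.55 for SAA1, -0.74 to 2.22 for SAA2 (-0.51 with limma-voom), -0.78 to 4.00 for PTX3, -3.53 to 0.46 for CFB and -0.78 to 1.68 for SERPINA1.

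Library size alone as the scale shifted the median of all genes by 0.15 on the log2 scale among knockout cells, and no direction of the 10 genes changed under either other scaling. Depth limited SAA1, SAA2 and PTX3 in resistant libraries (5, 1 and 1 reads) and the fibrinogen genes in parental-background libraries (0 or 1 read per gene and group).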

Other observations

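Non-member genes beside the 10 on the chromosome were chosen by position, and those that passed in resistant against parental cells all fell. Of all genes tested in that contrast, 12.8% passed as lower and 15.2% as higher. NELFE, 3 bases from CFB, fell by 0.95 on the log2 scale (adjusted p = 0.0449 by edgeR). ZBTB12, 43658 bases from CFB, fell by 1.08 (adjusted p = 0.0314), and SAA4, 2330 bases from SAA2, by 4.41 (adjusted p = 0.00909). CCNL1 and PQLC2L, beside PTX3, did not pass (adjusted p = 0.979 and 0.0647). PLRG1, 12521 bases from FGB, averaged 48.8 CPM in resistant and 139 CPM in parental cells and fell by 1.51 on the log2 scale (adjusted p = 0.0092 by edgeR), and LRAT, 13978 bases from FGG, fell by 3.86 (adjusted p = 0.00158), whereas FGB rose in the same contrast. HPS5, 8691 bases from SAA1, averaged 28.4 CPM in resistant and 24.5 CPM in parental cells (adjusted p = 0.548). TNFSF14, a cytokine gene 7116 bases from C3, averaged 0.0350 CPM in resistant and 3.19 CPM in parental cells (adjusted p = 0.00364), and TRIP10, 7363 bases away on the other side, did not pass (adjusted p = 0.140). The nearest protein-coding neighbours of LCN2, PTGES2 and C9orf16, did not pass in any of the 4 contrasts between groups. SERPINA6 and SERPINA11, the annotated neighbours of SERPINA1, averaged at most 0.136 CPM and 0.0333 CPM in a group and were not tested.

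FGA, left out by the filter, was included with no filter beyond 1 count, and there edgeR's adjusted p was 0.00102 in resistant knockout against resistant cells (log2 fold change 3.85), 9.27e-08 in resistant knockout against parental knockout cells and 0.0396 in resistant against parental cells, with 121, 7, 1 and 0 reads in resistant knockout, resistant, parental knockout and parental cells.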
